A study of Mus musculus with 4 samples.

Results

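Expression of 10 genes of myeloid cells and leukocytes was described in mouse skeletal muscle, namely S100a8, S100a9, Irf8, Lsp1, Fcer1g, Cd48, Ptprc, Cd68, Lyz2 and Csf1r. Members were taken as every probe set whose single symbol in the platform's gene table is one of these names, which gave 17 probe sets for the 10 genes, out of 12422 probe sets that are not controls. Some of the 10 genes were picked because their signals differ between the groups called J and NJ, so their J and NJ values are given as a description and are not tested. Of the 17 probe sets, 10, standing for 8 genes, were bright enough to enter the fit across the array, and 7 were too dim, among them all those of Ptprc and S100a9. A probe set naming both Lyz1 and Lyz2 was left out.

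The study measured total RNA of murine skeletal muscle on 4 expression arrays. The titles mark all 4 arrays as Ctr at 0 h, 2 of them as J (replicates 1a and 1c) and 2 as NJ (replicates 1a and 1d), under a series title that names the neuromuscular junction. The codes are not spelled out, and strain, sex, age and the number of animals are not given, so the spread between arrays of a group may be technical. The tissue label was matched by muscle fibre markers, with deposited signals of 32990 to 207533 for the skeletal actin Acta1 and 23349 to 61263 for the creatine kinase Ckm.

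Leukocytes are a minor cell population of muscle. They reside in the connective tissue between fibres and around vessels, or arrive in the blood left in the tissue. Macrophages depend on the receptor encoded by Csf1r and hold the lysosomal proteins encoded by Cd68 and Lyz2. Neutrophils carry large amounts of the calcium-binding proteins encoded by S100a8 and S100a9, which pair to form calprotectin. Ptprc encodes CD45, the surface phosphatase of nearly all white blood cells. In RNA of tissue that mixes cell types, fewer cells of a type and less RNA per cell cannot be told apart.

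The member probe sets ran from the 0.48 percentile of mean signal, at the dimmest of Ptprc, to the 65.6 percentile, at the brighter of Lsp1. The array's 19 probe sets for yeast and Bacillus transcripts, which are foreign to mouse, had medians of 44.4 to 95.1 on the 4 arrays. Their highest signals were 238 to 606, and whether any of these transcripts had been spiked in is not given. Of the 17 member probe sets, 0 exceeded the highest foreign signal on all 4 arrays and 6 exceeded it on none. The arrays themselves differed. Values of both 1a arrays were deposited with full digits and those of J 1c and NJ 1d to 1 decimal, a possible batch that holds 1 array of each group. The ratio of the 3′ to the 5′ probe set of Gapdh was 1.43 on J 1c against 7.48 to 8.34 on the other 3. That of actin did not set J 1c apart, at 4.61 there, 5.46 on J 1a, 4.75 on NJ 1a and 8.46 on NJ 1d. J 1c also had the smallest highest signal (41086 against 125534 to 238288). The part of these differences in the results below was not tested.

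**Figure D1:**
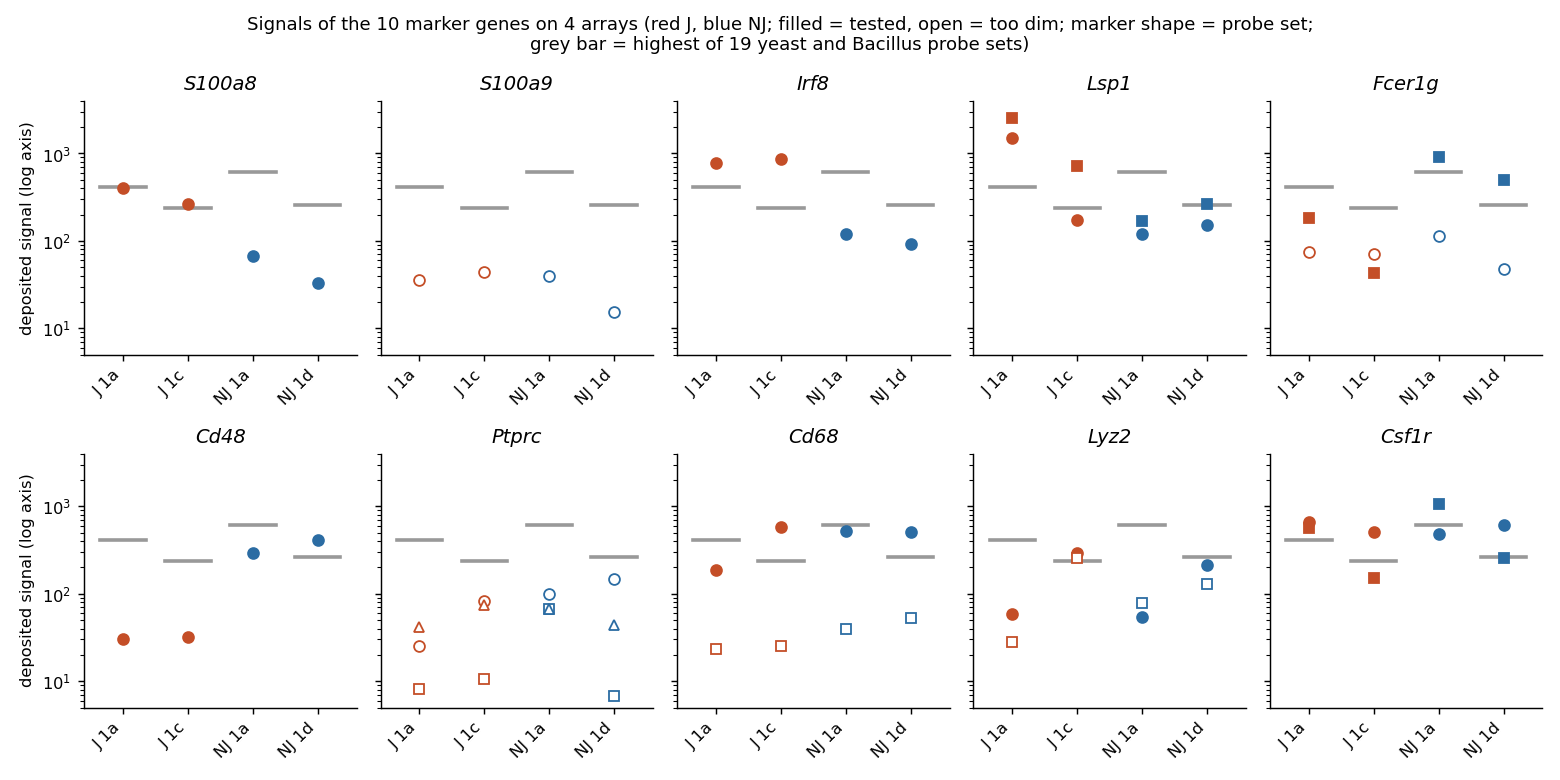
Deposited signal (log axis) of every probe set of the 10 genes on the 4 arrays, J in red and NJ in blue, with filled symbols for tested probe sets, open symbols for those too dim to test, 1 symbol shape per probe set and a grey bar at the highest of the 19 yeast and Bacillus probe sets of that array. S100a8, Irf8 and Lsp1 lie higher on both J arrays, Cd48 and 1 probe set of Fcer1g lie higher on both NJ arrays, and the rest overlap or are dim.

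Across the array, limma called 0 probe sets higher in J and 0 lower (0% of 9316 tested in each direction; Benjamini-Hochberg, threshold 0.05), the smallest adjusted p being 0.9998. Without adjustment limma had 116 probe sets (1.25%) higher and 82 (0.88%) lower at p under 0.05. Differences below are J minus NJ after 32 was added to each signal, log2 taken and the arrays quantile normalised. The value after ± is limma's moderated standard error from 2 J and 2 NJ arrays. That error is drawn toward the typical spread of tested probe sets of like brightness. It can thus be larger or smaller than a gene's own arrays would give. Pairs of signals are given in the order 1a, 1c for J and 1a, 1d for NJ. The added 32 shrinks the differences of dim genes, whose true size is not known at such signals. Of the 10 tested member probe sets, 4 had both J values above both NJ values and 2 had both below, where 13.6% and 12.9% of all tested probe sets did, together 26.5%. Since the genes were partly picked on this contrast, nothing is read from that count. Over the 8 tested genes the median difference was 0.11, against −0.01 over 6773 genes, with 5 genes above 0 and 3 below.

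Sequences upstream of 4 of the genes are shown because S100a8 and Irf8 lay higher on both J arrays, Fcer1g lay lower at its brighter probe set, and S100a9 is the partner of S100a8 on the same chromosome. Each is the 250 bases before the outermost transcript start in RefSeq, build GRCm38.p6, written 5′ to 3′ along the gene. Capitals mark GGAAGT or its reverse complement ACTTCC, a core read by ETS factors such as the myeloid regulator made from Spi1.
S100a8, chr3:90668821-90669070, strand +: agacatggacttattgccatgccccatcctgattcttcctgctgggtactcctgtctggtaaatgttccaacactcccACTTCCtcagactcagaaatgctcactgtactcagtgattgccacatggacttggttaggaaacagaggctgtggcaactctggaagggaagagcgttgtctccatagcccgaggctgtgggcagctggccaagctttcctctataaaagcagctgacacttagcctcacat
S100a9, chr3:90695722-90695971, strand -: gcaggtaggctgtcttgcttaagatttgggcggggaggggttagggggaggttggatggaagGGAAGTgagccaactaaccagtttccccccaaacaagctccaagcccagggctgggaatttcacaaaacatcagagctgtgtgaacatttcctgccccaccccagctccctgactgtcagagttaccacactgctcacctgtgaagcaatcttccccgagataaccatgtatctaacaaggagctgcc
Irf8, chr8:120736108-120736357, strand +: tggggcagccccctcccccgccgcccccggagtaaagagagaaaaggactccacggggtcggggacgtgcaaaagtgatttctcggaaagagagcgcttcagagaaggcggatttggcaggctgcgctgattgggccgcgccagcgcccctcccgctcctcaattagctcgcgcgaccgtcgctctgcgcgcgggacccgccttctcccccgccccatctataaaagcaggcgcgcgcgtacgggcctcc
Fcer1g, chr1:171234350-171234599, strand -: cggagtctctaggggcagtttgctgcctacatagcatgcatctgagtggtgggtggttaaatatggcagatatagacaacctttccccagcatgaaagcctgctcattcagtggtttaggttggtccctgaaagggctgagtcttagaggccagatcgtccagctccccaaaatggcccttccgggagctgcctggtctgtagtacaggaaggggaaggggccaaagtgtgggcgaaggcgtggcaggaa
The core GGAAGT, searched on both strands, occurred 1 time upstream of S100a8, ending 166 bases before the start, and 1 time upstream of S100a9, ending 182 bases before it. It was not in the windows of Irf8 and Fcer1g. Among all 32841 windows of the same length in the table, 19.7% held it. Of the 10 members 8 had an entry, with 10 windows in all, of which 5 held the core, among them that of Lyz2 at 94 bases and both of Ptprc, which overlap and share a site. Of the 6 windows at a gene's outermost start, 3 held it. A C/EBP core, TTGCNNAA, occurred upstream of S100a9 and Cd68 (9.57% of all windows). The motifs did not overlap in any member's window. A match describes the letters only. Lsp1 and Csf1r were not in the table used.

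Of the calprotectin genes only S100a8 was bright enough to describe. It had deposited signals of 405 and 263 (J) and 67.7 and 33.4 (NJ). Both J arrays lay above both NJ arrays, and the J values were near the highest foreign signal of their arrays, 416 and 238. The NJ values lay below the median foreign signal of their arrays, so the size of the difference depends on the added constant. It was 2.09 ± 0.75 with 32 (2.15 between the full-digit arrays and 2.03 between the rounded ones), 2.64 with a pseudocount of 1 and 1.48 with 100. S100a9, whose protein pairs with that of S100a8, had signals of 35.3 and 43.8 (J) and 39.4 and 15.5 (NJ). These values overlapped, all lay below the median foreign signal of their arrays, and the probe set was too dim to test, with J minus NJ at 0.24 (−0.09 between the full-digit arrays and 0.58 between the rounded ones). Such values cannot show whether S100a9 followed the pattern of S100a8.

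Irf8, a transcription factor that directs progenitors toward monocytes and dendritic cells, had signals of 780 and 859 (J) and 121 and 91.3 (NJ). The groups were far apart and the arrays within each were close, with standard deviations of log2 values of 0.14 (J) and 0.06 (NJ). The difference was 2.56 ± 0.74, or 5.90-fold, and stayed between 2.46 and 2.66 with each array left out and between 2.11 and 2.87 with the other pseudocounts. Irf8 lay at the 70.1 and 73.3 percentiles of signal on the J arrays and at the 25.4 and 27.0 percentiles on the NJ arrays.

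Lsp1, an actin-binding protein of leukocytes, was high mainly on array J 1a. Its brighter probe set had signals of 2519 and 717 (J) and 170 and 261 (NJ). J 1c was thus much closer to NJ 1d than J 1a was to either NJ array. The difference was 2.54 ± 0.77, from 3.91 between the full-digit arrays to 1.17 between the rounded ones, and it was 1.63 without J 1a. The other probe set had signals of 1498 and 173 (J) and 120 and 152 (NJ). There the difference was 1.77 ± 0.99, but 0.06 between the rounded arrays and 0.39 without J 1a.

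Fcer1g encodes the common gamma chain through which several activating Fc receptors signal in myeloid cells, mast cells and NK cells. Its tested probe set had signals of 185 and 43.0 (J) and 913 and 501 (NJ). Both NJ arrays lay above both J arrays, and J minus NJ was −2.55 ± 0.82, with −2.29 between the full-digit arrays and −2.81 between the rounded ones. With pseudocounts of 1 and 100 it was −2.97 and −2.03. The other probe set had signals of 74.6 and 71.1 (J) and 113 and 47.3 (NJ), which overlap. It was too dim to test, exceeded the median foreign signal on only 2 arrays, and differed by −0.13, so it cannot show whether the brighter probe set's pattern holds. The tested one carries the letter f, which in the array maker's naming marks probes that can match several members of a sequence family.

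Cd48, a surface protein of lymphoid and myeloid cells that binds CD244, was also lower on both J arrays. Its signals were 30.5 and 31.8 (J) and 294 and 407 (NJ). The J values lay below the median foreign signal of their arrays, while the NJ 1d value exceeded the highest one there and the NJ 1a value did not. The difference was −2.60 ± 0.76 and ran from −2.97 to −2.22 with each array left out, but with J at the level of foreign transcripts its size depends on the added constant, at −3.51 with a pseudocount of 1 and −1.78 with 100. Cd48 passed the brightness filter narrowly, at the 26.1 percentile of mean signal against a limit of 25, and with a pseudocount of 1 it no longer passed. Several members passed only through the group where they were higher. The mean of Cd48 and of Fcer1g in J, and that of S100a8 and Irf8 in NJ, lay below the limit of 7.22 (log2). Lyz2 passed through the rounded arrays of both groups, at 8.45 (J 1c) and 8.16 (NJ 1d). Its full-digit values, 6.29 (J 1a) and 6.24 (NJ 1a), lay below the limit. S100a8 at 29.7 and Lyz2 at 26.6 were the next members inside that limit, and the second probe set of Lyz2 at 21.2 and the brightest of Ptprc at 15.7 were the nearest outside it.

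Ptprc, the general leukocyte marker, had 3 probe sets, all too dim to test. The brightest had signals of 25.5 and 82.5 (J) and 98.1 and 149 (NJ). On the deposited scale both NJ values lay above both J values, while after normalisation J 1c and NJ 1a overlapped, and J minus NJ was −0.98. The others had signals of 6.70 to 66.1 and 42.2 to 74.8, with overlapping groups and differences of −0.59 and −0.05. The last of these was 0.03 on the deposited scale.

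Csf1r, the receptor of macrophages for the growth factors CSF1 and IL-34, gave different pictures at its tested probe sets, which spanned 0.48 and 2.41 on the log2 scale over the 4 arrays. Its brighter probe set had signals of 654 and 503 (J) and 488 and 605 (NJ), the groups overlapped, and the difference was 0.05 ± 0.62, turning to −0.05 without J 1a and −0.19 without NJ 1a. Its other probe set had signals of 569 and 152 (J) and 1049 and 257 (NJ). That probe set followed the number format, with both full-digit arrays above both rounded ones. Its difference was −0.84 ± 0.85, at −0.97 and −0.72 within the formats and 0.01 without NJ 1a.

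Cd68, a glycoprotein of lysosomes in macrophages, was low on a single array. Its brighter probe set had signals of 185 and 572 (J) and 518 and 510 (NJ). Only J 1a stood apart, the difference of −0.69 ± 0.79 became 0.17 without that array, and it was 0.09 between the rounded arrays. The dimmer probe set, not tested, had signals of 23.5 and 25.3 (J) and 39.9 and 52.9 (NJ). Those groups were apart on the deposited scale but overlapped after normalisation, and all values but that of NJ 1d lay below the foreign median of their arrays.

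Lyz2, the lysozyme of macrophages and neutrophils, followed the number format more than the groups. Its brighter probe set had signals of 58.6 and 290 (J) and 54.1 and 214 (NJ). Both rounded arrays lay well above both full-digit arrays, and the difference was 0.17 ± 0.997, with 0.05 and 0.29 within the formats. Leaving out J 1c gave −0.91, leaving out NJ 1a gave −0.79, and leaving out J 1a gave 1.25. The dimmer probe set, with 28.4 and 258 (J) and 79.1 and 130 (NJ), overlapped as well and differed by −0.07, or 0.06 with a pseudocount of 100.

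**Figure D2:**
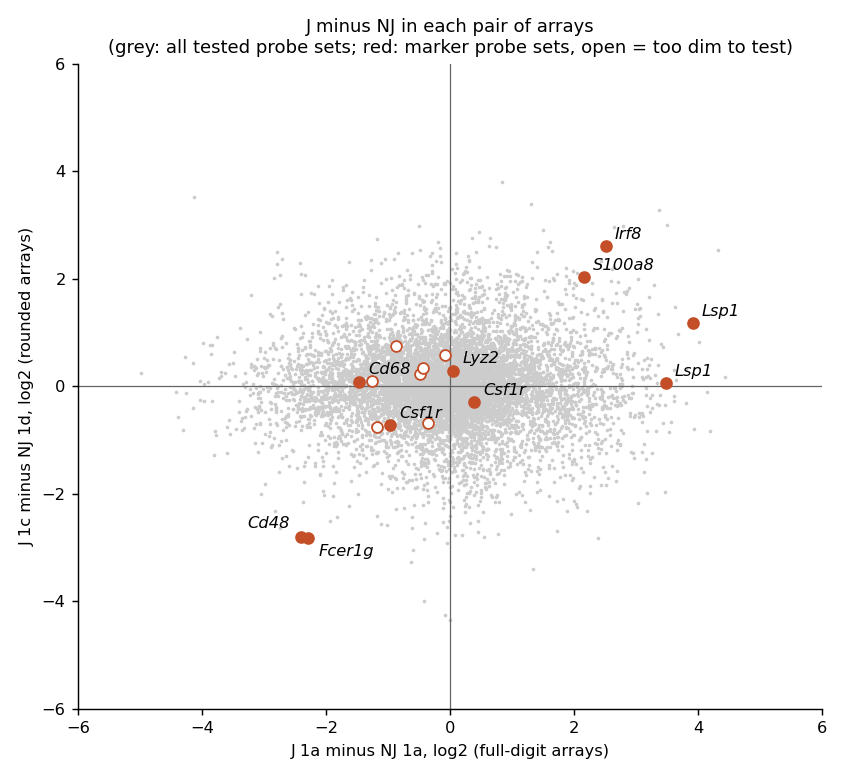
J minus NJ on the log2 scale between the full-digit arrays (x axis) and between the rounded arrays (y axis) for all 9316 tested probe sets in grey and the 17 member probe sets in red, open where too dim to test. Irf8 (2.51 and 2.61) and S100a8 (2.15 and 2.03) lie in the upper right, Cd48 (−2.40 and −2.80) and Fcer1g (−2.29 and −2.81) in the lower left, and Lsp1 far to the right with 3.91 and 1.17 at its brighter probe set.

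The pair of arrays with full digits and the pair with rounded values share no array, and their J minus NJ differences had the same sign for 8 of the 10 tested member probe sets, 5 above 0 and 3 below. Over all tested probe sets 49.4% had the same sign. That count includes probe sets picked on their mean difference, and it is given as a description. The median range of the member probe sets over the 4 arrays was 2.56 on the log2 scale, against 1.30 over all tested probe sets, and 8 of 10 spanned at least 2, against 24.6% of all. Genes picked for a difference between J and NJ have a wide range by choice, so this too is a description.

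Genes that follow the share of a single cell type would rise and fall by a common amount on each array, and the 8 tested genes were set side by side on that measure, each by its brightest probe set and relative to its own mean over the 4 arrays. Averaged over the 8 genes the deviation was 0.04 on J 1a, 0.16 on J 1c, −0.32 on NJ 1a and 0.12 on NJ 1d. A shift common to all 8 genes on each array held 2.80% of their summed squared deviation. No array was high or low for all of them, with 4, 5, 3 and 5 of 8 genes above their own mean on J 1a, J 1c, NJ 1a and NJ 1d. Since genes higher in J and genes lower in J were picked together, they oppose each other by choice, and nothing is read from the size of the common share.

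**Figure D3:**
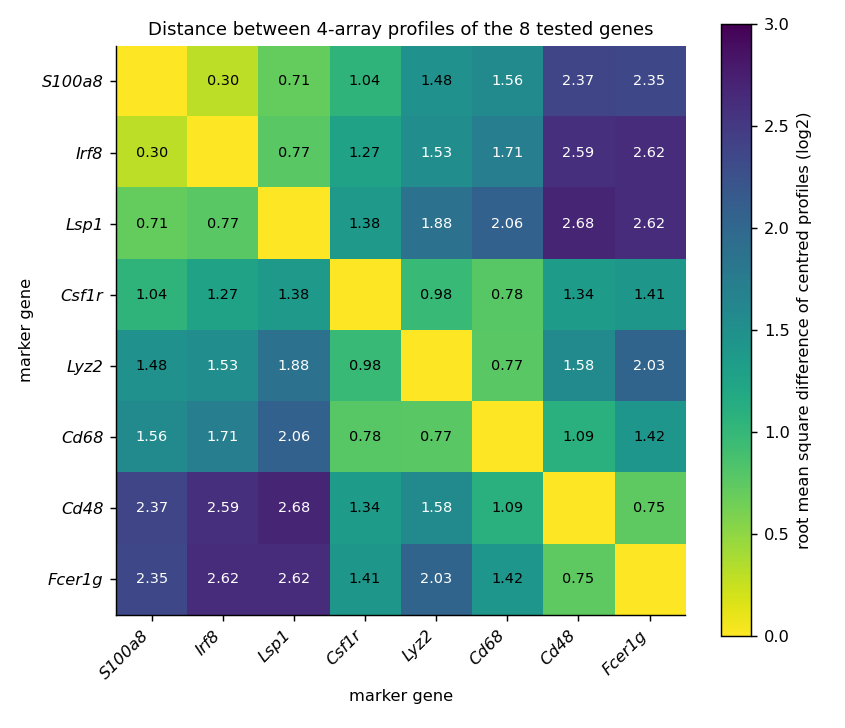
Root mean square difference between the centred 4-array profiles of each pair of the 8 tested genes, in log2 units, with small values in yellow. S100a8, Irf8 and Lsp1 form a block of 0.30 to 0.77, Fcer1g and Cd48 lie 0.75 apart, and distances between these sets are 2.35 to 2.68.

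The distance between 2 profiles was taken as the root mean square difference of the 4 centred log2 values. Over the 28 pairs of genes its median was 1.45, against 0.75 over all pairs of the 6773 genes. Of the 28 pairs, 0 put the 4 arrays in the same order. The share over all gene pairs was not counted, and genes picked in opposite directions cannot share an order. Nothing is read from that count. The closest pair was Irf8 and S100a8 at 0.30, followed by Lsp1 with S100a8 at 0.71. Fcer1g and Cd48 were 0.75 apart and lay 2.35 to 2.68 from S100a8, Irf8 and Lsp1. The macrophage genes Cd68 and Lyz2 were 0.77 apart, Cd68 and Csf1r 0.78, and Csf1r and Lyz2 0.98. Probe sets of 1 gene were not always closer than that, with 0.39 for the pair of Lyz2, 0.51 for Lsp1 and 0.52 for Cd68 but 0.99 for Csf1r and 1.32 for Fcer1g. One of each pair was too dim to test for Lyz2, Cd68 and Fcer1g. Some members were chosen on their J and NJ values, which these profiles contain, so the distances are a description.

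The gene nearest to a member by the same measure, over 4 arrays and 6772 other genes, was found for the 6 members that span at least 2 on the log2 scale, which leaves out Csf1r and Cd68. None of these 6 nearest genes is in the leukocyte lists used here. Those lists hold only 92 tested genes other than members, so nothing is read from that absence. For Irf8 it was Cadm1, an adhesion molecule, at 0.17, with signals of 3586 and 3367 (J) and 605 and 629 (NJ). For S100a8 it was Hbb-y, an embryonic globin, at 0.03, with 532 and 362 (J) and 97.3 and 50.1 (NJ). The nearest to Lsp1 was Taf1a at 0.31, to Fcer1g the DNA methyltransferase Dnmt3a at 0.34, to Cd48 Las1l at 0.26 and to Lyz2 Ganab at 0.03. Other genes lay nearer to a member than the nearest other member did, from 3 genes for Irf8 and 21 for S100a8 to 1043 for Lyz2. With 6772 genes set against few members on 4 values, some gene is likely to lie nearer. Some members were also picked on these values, so nothing is read from these counts. The number of genes within 0.5 of a member ran from 6 for Fcer1g and for Cd48 to 263 for Lyz2.

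The wider leukocyte genes were then examined in 11 lists, of 156 genes in all, of which 92 were tested and are not among the 10. In limma 0 of the 92 passed over all probe sets (adjusted p of at least 0.9998), and 1 had an unadjusted p under 0.05. Their J and NJ values did not overlap for 32, that is 34.8% against 26.6% of all genes, with 22 higher in J (13.4% of all genes) and 10 lower (13.2%). Their median difference was 0.13, at 0.31 between the full-digit arrays and 0.02 between the rounded ones. Fibroblast, endothelial and muscle fibre genes, which mark the surrounding tissue, had medians of 0.41, −0.14 and −0.27. The fibroblast median was 0.19 to 0.63 with each array left out, the endothelial one −0.40 to 0.21, and the muscle fibre one −0.62 to 0.07, with −0.68 when the arrays were left as deposited and −0.74 when they were centred on their medians. Postn, a matrix protein of fibroblasts, had signals of 1311 and 700 (J) and 43.3 and 75.2 (NJ). It differed by 3.43 ± 0.81, farther from 0 than any of the 10 genes with 32 added. Its NJ 1a value lay below the median foreign signal of that array, 73.1, so the size depends on the added constant. Values of some list genes below, such as Itgb2, Cd28 and Ms4a2, also lay under the foreign median of an array. The summed signal of the 8 fibroblast genes was 110680 and 44217 (J) and 61496 and 52476 (NJ). That of the 10 muscle fibre genes was 1248500 and 208013 (J) and 1041180 and 703342 (NJ), by far the lowest on J 1c. The part of these tissues in the values above was not tested.

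**Figure D4:**
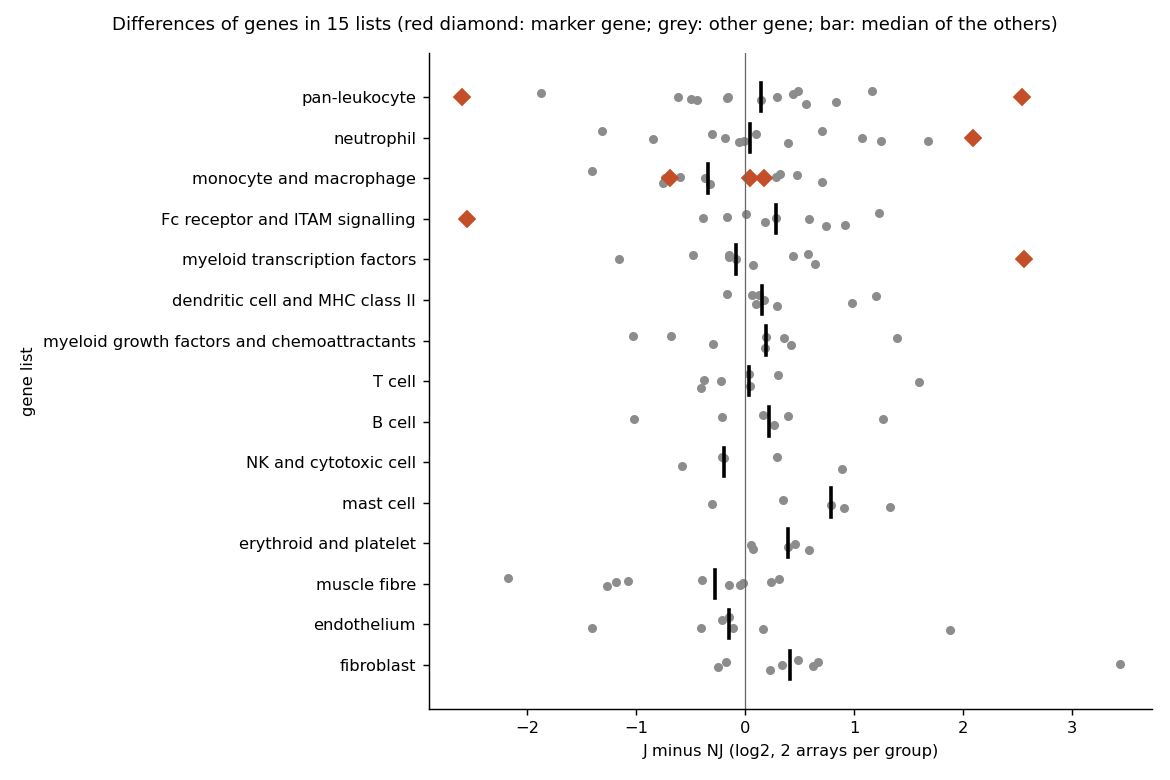
J minus NJ (log2, 2 arrays per group) of the tested genes of 15 lists, with the 8 tested marker genes as red diamonds, other genes as grey points and the median of the other genes as a bar. The medians lie between −0.34 and 0.79, and single genes of both kinds lie far from them, the red diamonds from −2.60 to 2.56 and the fibroblast gene Postn highest of all at 3.43.

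Beside Ptprc, Lsp1 and Cd48, the list of general leukocyte genes had 13 tested members. In mean 7 of them were higher and 6 lower, and the median was 0.14. It was 0.35 to 0.38 without NJ 1a, J 1c or NJ 1d, and 0.43 and 0.38 within the number formats. Laptm5, a lysosomal membrane protein of blood cells, had signals of 2501 and 1702 (J) and 1061 and 1221 (NJ) and differed by 0.83 ± 0.44. Cd52 differed by 1.17 ± 0.79, with 667 and 481 (J) and 449 and 101 (NJ). Itgb2, the beta chain shared by the leukocyte integrins, went the other way, at 71.3 and 56.4 (J) and 744 and 101 (NJ), a difference of −1.88 ± 0.91 carried mostly by NJ 1a (−3.07 between the full-digit arrays and −0.68 between the rounded ones). Without the 10 genes the summed signal of this list was 10601 and 8079 in J and 8110 and 6627 in NJ, which overlap.

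The neutrophil list beside S100a8 and S100a9 had 12 tested members, split evenly at 6 higher and 6 lower. Their median was 0.05, a value that was −0.20 without J 1a and 0.49 without J 1c. Csf3r, the receptor for the neutrophil growth factor G-CSF, had signals of 1344 and 1230 (J) and 613 and 398 (NJ), with both J arrays higher and a difference of 1.24 ± 0.52. The granule genes Camp and Ltf differed by 1.68 ± 0.91 and 1.07 ± 0.79, each highest on J 1a, and the deposited values of Camp overlapped between the groups. Mpo, the myeloperoxidase of primary granules, had 182 and 199 (J) and 450 and 265 (NJ), and differed by −0.84 ± 0.77. Chil3, a chitinase-like protein, differed by −1.31 ± 0.73. The integrin chain Itgam was too dim to test.

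The monocyte and macrophage list beside Csf1r, Cd68 and Lyz2 had 10 tested members, of which 4 were higher and 6 lower. Their median was −0.34, a value that stayed between −0.62 and −0.13 with each array left out but was 0.10 between the rounded arrays, and −0.02 when all tested probe sets of a gene were averaged. Cx3cr1, the fractalkine receptor, had signals of 231 and 1050 (J) and 1400 and 1094 (NJ) and was low on J 1a alone, as Cd68 was. Its difference was −1.40 ± 0.74. C1qb, a chain of complement C1q, had 2657 and 3226 (J) and 2214 and 2555 (NJ), and differed by 0.32 ± 0.37. Mrc1, the mannose receptor, differed by 0.71 ± 0.76, and Ctss, a lysosomal protease, by −0.32 ± 0.59. The summed signal of these 10 genes was 6954 and 8228 (J) and 8631 and 7581 (NJ).

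Fcer1g works with the Fc receptors and with kinases that bind its cytoplasmic motif. Beside it 9 genes of that list were tested, of which 7 were higher and 2 lower. Their median was 0.29, or −0.02 without J 1c. Fcgr1, the high-affinity receptor for IgG that pairs with the Fcer1g chain, had signals of 960 and 404 (J) and 280 and 217 (NJ), a difference of 1.23 ± 0.73 opposite in sign to that of Fcer1g. Syk, the kinase recruited by the chain, had 5400 and 4124 (J) and 3476 and 2917 (NJ), and differed by 0.59 ± 0.38. Fgr, a Src family kinase, differed by 0.91 ± 0.59, and Plcg2 by −0.16 ± 0.75. The summed signal without Fcer1g was 8843 and 6782 (J) and 5692 and 4549 (NJ), with both J arrays above both NJ arrays. Syk alone made up most of this sum on every array. The sums of all the other lists overlapped between the groups.

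Among the transcription factors beside Irf8, 4 of 9 were higher and 5 lower (median −0.08, and 0.14 without J 1c). Spi1, which acts with Irf8 in myeloid cells, had signals of 705 and 450 (J) and 399 and 318 (NJ) and differed by 0.58 ± 0.67. Cebpd differed by 0.44 ± 0.44, while Cebpb had 511 and 523 (J) and 1502 and 828 (NJ) and differed by −1.16 ± 0.56. Genes of dendritic cells and MHC class II gave 7 higher and 1 lower (median 0.15, but −0.15 without NJ 1a, 0.57 without NJ 1d and −0.27 between the rounded arrays). Itgax, the integrin chain CD11c, had 599 and 405 (J) and 189 and 190 (NJ), and differed by 1.20 ± 0.75. Growth factors and chemoattractants were 5 higher and 3 lower (median 0.19, and −0.38 without J 1a), with Csf2 at 1.39 ± 0.89, of which 0.01 remained between the rounded arrays. Il3, a growth factor of mast cells and progenitors, had signals of 308 and 101 (J) and 566 and 243 (NJ), which overlap as deposited but not after normalisation, and differed by −1.03 ± 0.81.

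Lymphocyte markers were partly too dim. Of the T cell list 6 of 13 genes with a probe set were too dim to test, among them Cd3d, Cd3g and Cd8a, and the 7 tested had a median of 0.04, with 4 higher and 3 lower, a median that fell below 0 without J 1a (−0.35) or without NJ 1d (−0.13). Cd28, a costimulatory receptor, had signals of 240 and 245 (J) and 39.0 and 73.3 (NJ) and differed by 1.59 ± 0.78, while Lat, an adaptor of the T cell receptor, differed by −0.41 ± 0.44. B cell genes were 4 higher and 2 lower, with Pax5 at 1.27 ± 0.87 and overlapping deposited values. Their median was 0.22, but −0.06 without NJ 1a, 0.07 without J 1a, 0.43 without J 1c and 0.55 between the full-digit arrays. Genes of NK and cytotoxic cells were 2 higher and 3 lower (median −0.19), and this median lay above 0, at 0.12 to 0.39, without J 1c, NJ 1a or NJ 1d. The summed signal of the T cell list was 3690 and 2932 (J) and 3956 and 2854 (NJ), which overlap.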

How the data were processed

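The deposited intensities are linear signals, 1 for each probe set on an array. The mean after trimming 2% at each end was 801 in all 4 columns, so each array had been scaled, by software that is not given in the sources used here. Of 12488 probe sets, 66 controls were left out of the tests. Signals were taken as log2(signal + 32) and quantile normalised, since array medians differed by more than 0.1, and probe sets with a mean above the 25th percentile entered limma 3.58.1 under R 4.3.3 (lmFit and eBayes, intensity trend, 2 residual degrees of freedom, Benjamini-Hochberg). The scripts were tested on simulated data. The brightest probe set stood for a gene. Members and lists were chosen with earlier results of these data known. Genes named from a list are up to 3 per direction with the largest difference among those whose groups do not overlap; Hbb-y and others are the nearest profiles of members spanning at least 2 on the log2 scale. Acta1, Ckm, Cma1, Mcpt4, Tpsb2 and genes called too dim were named outside this rule. Alternatives were other scales, pseudocounts of 1 and 100, other filters, no trend, a number-format term, each number format alone, the mean of a gene's tested probe sets and leaving out each array. Figures used matplotlib 3.10.9 in Python 3.11.15.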

Additional observations from a re-analysis of the deposited data

How the results depend on the processing

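No paired analysis was possible because the replicate labels match in 1a alone, which gives a single pair by number. A term for number format, which sets J 1a against NJ 1a and J 1c against NJ 1d, was fitted instead, and with it 8 probe sets were called, 4 in each direction, none of them among the 10 genes. The count of 0 called probe sets held in limma under the other scales, pseudocounts and filters, with no trend, and with each array left out. The 4 member probe sets higher and 2 lower in J without overlap became 4 and 1 with a pseudocount of 1, and 2 and 0 with the filter at the median, where 5 member probe sets were left. With each array left out, where 3 values separate more easily, they were 4 to 6 and 3. The median difference of the members, 0.11, was 1.29 with the filter at the median (4 genes) and ranged from −0.48 (without NJ 1a) to 0.71 (without J 1a) with each array left out, so its sign depends on single arrays. Of 192 alternative values of single member probe sets, 21 changed sign, and of 195 list medians, 33 did. None of the 21 was of S100a8, Irf8, Lsp1, Cd48 or the tested probe set of Fcer1g. The J and NJ values of those probe sets do not overlap. Leaving out an array or taking 1 number format alone could therefore not change their sign, and nothing is read from its staying the same. With 2 arrays per group, and many signals near those of foreign transcripts, small differences of these genes cannot be resolved.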

Other observations

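Mast cell genes had a median difference of 0.79 over 5 tested genes, of which 4 were higher and 1 lower in J. It was 0.36 without NJ 1d and 1.52 without J 1a, 0.30 between the full-digit arrays and 1.51 between the rounded ones. Cpa3, the carboxypeptidase of mast cell granules, had signals of 377 and 884 (J) and 297 and 246 (NJ), and Ms4a2, the beta chain of the IgE receptor, had 212 and 220 (J) and 109 and 29.5 (NJ). Their differences were 0.90 ± 0.76 and 1.33 ± 0.76, and neither passed limma over all probe sets (adjusted p = 0.9998). The array NJ 1d was the lowest for both, and the summed signal of the list was 2507 and 3350 (J) and 2612 and 1269 (NJ). The gene lower in mean, Cma1, had signals of 34.9 and 1191 (J) and 999 and 53.9 (NJ). It differed by −0.30, and its swings between arrays are large beside those sums. Mcpt4 and Tpsb2 differed by 0.79 and 0.35, and the groups overlapped for both, as for Cma1.

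Genes of red cells and platelets, which would come with blood left in the tissue, were higher in mean for 5 of 5 tested genes, with a median of 0.39 that was −0.08 without J 1a and −0.21 between the rounded arrays. Hba-a1, an adult alpha globin named here for its level, had signals of 40486 and 16397 (J) and 29770 and 28704 (NJ) and differed by 0.06. Both NJ values thus lay between the J values. The embryonic globin Hbb-y was higher on both J arrays, as S100a8 was. It was picked as the nearest profile to S100a8, so nothing is read from that likeness.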
